A study of Gossypium hirsutum with 42 samples.

Results

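The roots of the medium hybrid (M) were compared with the roots of the low hybrid (L) in upland cotton, Gossypium hirsutum, to ask which genes separate seedlings of 2 F1 hybrids that were ranked differently for yield heterosis. The comparison rests on 6 of the 42 RNA-seq libraries, chosen by their labels as the 3 root libraries of M and the 3 root libraries of L. M is the cross SJ48-851-2 and L is the cross SJ48-DT-8, so both share the mother SJ48 (A) and differ in the father, 851-2 (C) for M and DT-8 (D) for L. The other genotypes are the high hybrid SJ48-Z98-15 (H) and its father Z98-15 (B). All 7 genotypes were grown as untreated seedlings in Hoagland solution, and root and leaf of the same plant were harvested when the true leaves had fully expanded, in 3 biological replicates. The words high, medium and low describe yield in the field, which the libraries do not measure. Values are FPKM, fragments per kilobase of transcript scaled to the mapped fragments of the library, and differences are M minus L on the scale log2(FPKM + 1) with their standard error (SE), which understates the change of weakly expressed genes.

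An F1 hybrid carries 1 chromosome set from each parent, and heterosis is the performance of such a plant beyond its parents. Hybrids of a common mother hold the same maternal alleles, so their transcriptomes can differ through the paternal alleles and through the regulation that those alleles meet. Upland cotton is an allotetraploid whose genes mostly come as an A subgenome and a D subgenome copy. Its root takes up water, nitrate, phosphate and metal ions, and its growth depends on wall loosening, on lignin and suberin barriers and on hormone signals.

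The libraries of both hybrids were alike in size and spread. Between 77191 and 78304 genes were above 0 in each of the 6 libraries. Pearson correlations of log2(FPKM + 1) ran from 0.904 to 0.920 among the M libraries, from 0.917 to 0.922 among the L libraries and from 0.906 to 0.923 between M and L, so an M library was about as close to an L library as to another M library. M replicate 2 was the least like the others, with 0.904 to 0.906 within its group. Transcripts of light-harvesting proteins in these roots were at 1.92% of the M leaf level and at 1.13% of the L leaf level. The depth behind each value is unknown because the table holds no counts.

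The labels were also checked against genes expressed in 1 inbred only, and M did not follow its labelled parents fully. A gene was taken as specific when it reached an FPKM of 2 in all 3 root libraries of 1 inbred and stayed under 0.2 in those of the other 3. L was above 0.5 in all 3 libraries for 27 of the 42 genes specific to its father D, and for 0 of the 16 specific to C. M was above 0.5 for 8 of the 16 genes specific to its father C, but also for 4 of the 16 genes specific to B and for 5 of the 42 specific to D. Conversely, 29 genes reached 2 in all 3 M root libraries while staying under 0.2 in every root library of A and C, against 8 such genes in L and 11 in H. In leaf these numbers were 20 in M, 7 in L and 10 in H. These limits were chosen after the data were seen, and under limits of 1 and 0.1 the M number was 50 and the L number 10. The cause was not tested. All 3 M libraries show these genes by the way they were chosen, so no comparison could be given without them.

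Genes chosen by a second rule, at least 5 in all 3 libraries of a father and under 0.1 in those of A and the other father, whatever the level in B, gave a like picture. There were 23 such genes for D and 2 for C. The median ratio of L to D was 0.341 over the 23 genes. Of these, 15 were at 1 or more in all 3 L libraries, with ratios from 0.280 to 0.730. Gh_D08G0480, a leucine-rich repeat receptor kinase, was at 15.1 in D, at 3.72, 4.72 and 4.23 in L and at 3.06, 3.95 and 3.09 in M, so a gene of D was present in both hybrids at like levels. Gh_D10G2262, without description, was likewise at 31.5 in D, at 14.1, 9.46 and 10.6 in L and at 13.5, 14.7 and 12.2 in M. Its name is carried by more than 1 locus, and these values are of MSTRG.51303. Gh_Sca113166G01, an ENTH/VHS/GAT family protein of membrane traffic, was at 17.6 in D and listed at 0 in all L roots. Both genes of C, MSTRG.39392 and Gh_D05G3395, a Stig1 family protein, were at 8.43 and 14.7 in C, the second also at 2.78 in B, and listed at 0 in all 3 M libraries.

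Few genes separated the roots of the hybrids. Of 59282 genes tested, 149 (0.251% called) differed at an adjusted p under 0.05 and by more than 1 on the log2 scale, 74 of them (0.125%) higher in M and 75 (0.127%) higher in L, by limma with Benjamini-Hochberg adjustment. At an unadjusted p under 0.05 with the same limit, 675 genes (1.14%) passed, 323 higher in M and 352 higher in L. An approximate 95% interval of the difference, from a normal quantile, lay between -1 and 1 for 50001 genes, or 84.3% of those tested. The t quantile of the fit is larger, so its own intervals are wider and the count would be no higher. For most genes a difference beyond 2-fold on this scale was outside the approximate interval. The median difference over all genes was 0.01 and the median SE 0.17. Among these genes, 25 of the 74 higher in M and 5 of the 75 higher in L passed the filter on low values, an FPKM of 1 in 3 root libraries, only through the hybrid in which they were high, so their difference follows in part from that filter. Leaving out M replicate 2 lowered the number higher in M from 74 to 45, with 22 of the 74 then below the filter, and 83 of the 149 genes, 33 higher in M and 50 higher in L, were called in each of the 6 fits that left out 1 library.

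**Figure D1:**
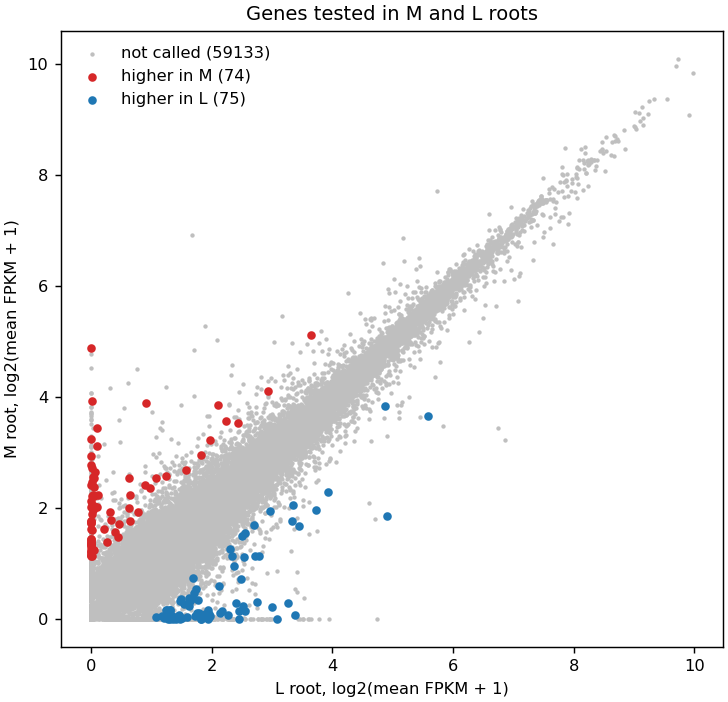
Mean level of each tested gene in M root (vertical) against L root (horizontal), both as log2(mean FPKM + 1) over 3 libraries. The 74 genes higher in M (red) and the 75 higher in L (blue) lie mostly along the axes, where 1 hybrid is near 0.

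The genes that differed were weakly expressed and mostly near absent from 1 of the hybrids. The larger of the 2 group means had a median FPKM of 2.90 and was under 5 in 114 genes, and only 5 genes reached 20. The smaller mean was under 0.5 in 110 genes. In 36 genes all 3 libraries of the lower hybrid were listed at 0, 26 in L and 10 in M. The libraries of M and L did not overlap in any of the 149, where 10.7% of all tested genes showed no overlap. A description was available for 25 of the 149 (16.8%, against 51.1% of the tested genes), and 101 (67.8%) were assembled loci without a gene name, against 34.6% of the tested genes.

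The largest class among the genes higher in L was present in the father of L and silent in its mother and in the father of M, whatever the level in B. In 32 of the 75, D had a mean FPKM of at least 1 while A and C were under 0.5. L stood at a median of 47.3% of D (range 15.96 to 174%). The mid-parent level is 50% if the mother is at 0 and D is the pollen parent. The genes were chosen as higher in L, which favours high values in L, so this percentage does not measure inheritance. The genes of D chosen without L by the second rule above had a median ratio of 0.341. The median over these 32 genes was 5.57 in D, 2.35 in L, 0.05 in M and 0 in A, B and C, although 2 of them were at 1 or more in B. Of the 26 genes among them that were also tested in leaf, 23 were higher in L leaf as well. Over all genes tested in leaf, 0.64% differed between M and L. A gene near absent from the other genotypes could enter the leaf test only by being high in D or L leaf. Leaf and root also came from the same plants, so this leaf count is a description.

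The gene Gh_A09G0220 on chromosome A09 shows this pattern at the higher level of the 2 described ones. It encodes an EXS family protein, a family whose Arabidopsis member PHO1 exports phosphate into the xylem. Its FPKM was 8.19, 8.76 and 8.74 in the L roots and 0.288, 0.213 and 0.151 in the M roots, so the groups were far apart. D reached 24.9 ± 1.25 (SD, n = 3), while A was at 0.0441 and C at 0.490. The M minus L difference was -2.97 (SE 0.10, adjusted p = 1e-11, limma).

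Further described genes with high values in D and L encode a transcription factor subunit and a water channel. Gh_A07G1738 encodes NF-YB3, a subunit of the trimeric factor that binds CCAAT boxes. It was at 6.38, 5.02 and 5.34 in L and at 0.987, 1.25 and 1.36 in M, with 9.50 in D and 1.64 in C, and the difference was -1.58 (SE 0.22, adjusted p = 0.00107, limma). L was thus well above M and its mother A, which was at 1.81. The aquaporin Gh_A13G0156 encodes PIP1;4, a plasma membrane water channel. It was at 7.53, 10.4 and 9.40 in L and at 2.01, 2.27 and 2.93 in M, with 7.20 in D, 1.63 in C and 2.17 in A, and the difference was -1.57 (SE 0.23, adjusted p = 0.00188, limma). For both genes every L library exceeded every M library, but no overlap was seen in any of the 149 genes called. Gh_D13G2520, a carboxyltransferase subunit of the acetyl-CoA carboxylase that starts fatty acid synthesis, was at 6.96, 6.44 and 7.08 in L against 2.19, 3.30 and 3.11 in M, with 6.72 in D and 3.55 in C. Its difference of -1.03 (SE 0.21, adjusted p = 0.0365, limma) lost its call without any 1 of the 6 libraries, with an adjusted p of up to 0.201.

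Other genes higher in L were not set apart by the fathers. Gh_D05G3614;Gh_D05G3613 is described as sulfotransferase 16, an enzyme that in Arabidopsis sulfates glucosinolate precursors. It was at 12.5, 8.54 and 8.73 in L and at 2.20, 1.96 and 2.38 in M, against 5.73 in C, 3.89 in D and 1.69 in A, and the difference was -1.76 (SE 0.18, adjusted p = 2.58e-05, limma). L therefore lay above all 3 inbreds, although the father of M was above the father of L. The wall genes also had a mean in L above those of A, C and D, but not with a clear gap in each. Gh_D02G0992 encodes a xyloglucan endotransglucosylase/hydrolase, an enzyme that cuts and rejoins the xyloglucan of growing walls. It was at 4.49, 4.27 and 3.44 in L and at 1.19, 1.31 and 1.09 in M, with 2.55 in C and 2.30 in D. A was at 3.38, 3.57 and 2.78, so A overlapped L, while M was below every library of A, C and D. H was also low, at 1.25. The difference of M and L was -1.20 (SE 0.18, adjusted p = 0.00262, limma). In leaf the means were 3.04 in M and 30.5 in L, a difference of -2.89 (SE 0.40, adjusted p = 0.000727, limma). The gene was thus not low in M root alone, and its root minus leaf difference was not called (adjusted p = 0.0912, limma). Gh_D05G1532 encodes AGP31, an arabinogalactan protein of the wall. It was at 5.29, 2.18 and 4.95 in L and at 1.08, 1.02 and 0.717 in M, with 1.87 in C, 0.817 in D and 1.03 in A. The difference was -1.35 (SE 0.22, adjusted p = 0.00446, limma). In both genes L exceeded M in every library, which sets neither apart from the other genes called. The call of AGP31 was lost when only the 6 libraries were fitted, at an adjusted p of 0.250 by limma.

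**Figure D2:**
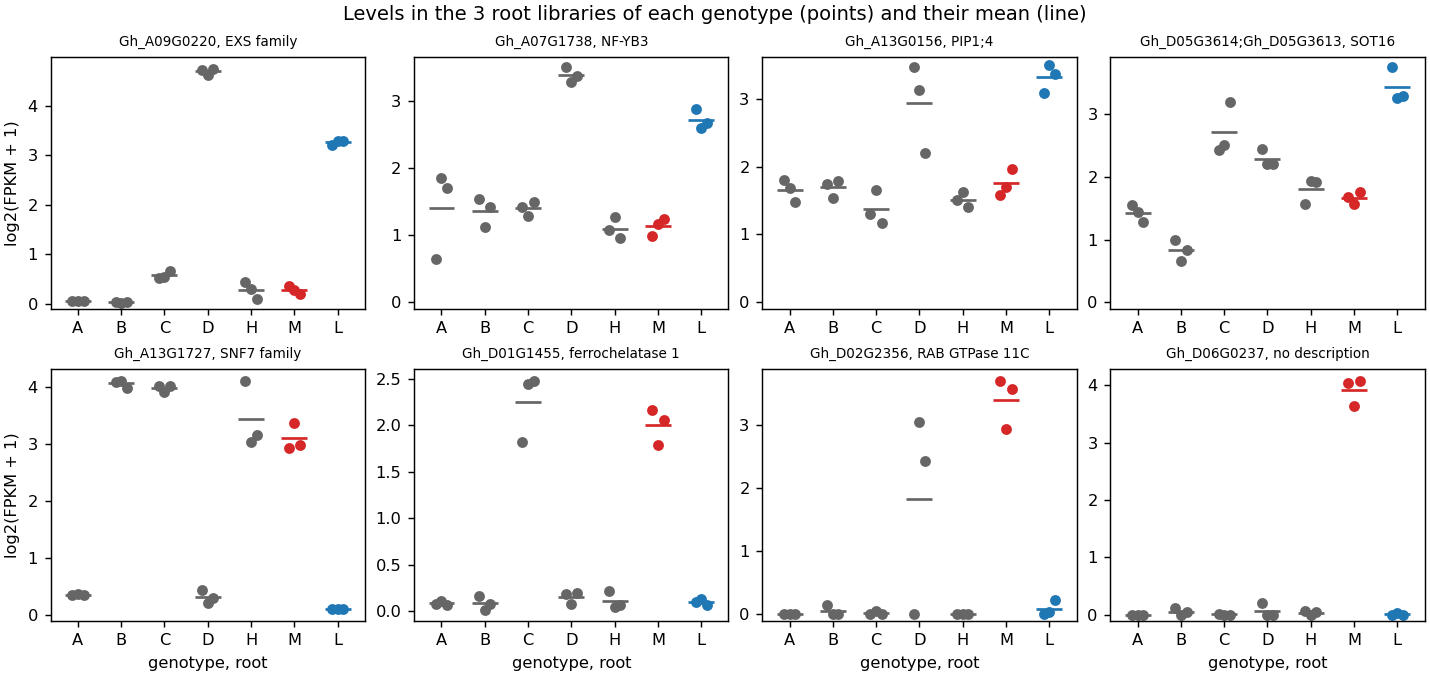
Levels of 8 genes in root, as log2(FPKM + 1), in the 3 libraries of each genotype (points) with their mean (line), M in red and L in blue. L follows D in Gh_A09G0220, M follows C in Gh_D01G1455, and Gh_D06G0237 reaches 11.5 to 15.9 FPKM in M while its mean is under 0.05 in each of the other genotypes.

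Among the genes higher in M, 14 of the 74 were of the matching class, with C present and A and D silent by the same limits, and 4 of these were at 1 or more in B. M stood at a median of 51.6% of C (range 19.6 to 100%), a value that the choice of genes higher in M favours in the same way. A described example was Gh_D01G1455, which encodes ferrochelatase 1, the enzyme that inserts iron into protoporphyrin to make heme. It was at 3.49, 2.46 and 3.17 in M and at 0.0690, 0.0990 and 0.0504 in L, and C was at 3.87 while A, B, D and H were at or under 0.114. The difference was 1.90 (SE 0.16, adjusted p = 2.14e-06, limma). Gh_A13G1727 encodes an SNF7 family protein, a subunit type of the ESCRT-III complex that sorts membrane cargo. The name is carried by more than 1 locus, and the values are of the locus MSTRG.28799. It was at 6.62, 9.39 and 6.92 in M and at 0.0738, 0.0750 and 0.0706 in L, with 14.8 in C, 15.7 in B, 10.5 in H, 0.281 in A and 0.244 in D. The difference was 2.996 (SE 0.19, adjusted p = 6.25e-08, limma), and the L mean was below those of A and D. Gh_Sca005954G01, chosen after its values were seen, encodes HDR, the last enzyme of the plastid isoprenoid pathway, and was at 1.86, 1.93 and 3.02 in M against 0.3999, 0.373 and 0.345 in L, with 3.92 in C and 0.158 in D.

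The largest class among the genes higher in M was silent in every inbred. In 22 of the 74, the root mean was under 0.5 in all of A, B, C and D, and 3 of the 75 genes higher in L were of this kind. All 22 entered the test only through the M libraries, since fewer than 3 other root libraries reached an FPKM of 1, so they had to be high in M to be tested and their count is a description without a test. Of the 13 that were tested in leaf, 12 were higher in M leaf too, where 0.64% of all genes tested in leaf differed. The leaf filter was the same, so a gene silent in the other genotypes could enter the leaf test only by being high in M leaf. This leaf count is therefore also a description without a test. Only 1 carries a description and 8 carry a gene name. The gene with the highest level was Gh_D06G0237 on chromosome D06, which has no description. It was at 15.5, 11.5 and 15.9 in M and at 0, 0.0208 and 0 in L, a difference of 3.91 (SE 0.13). Its mean in M leaf was 7.24 against 0.0118 in L leaf. Its root mean was under 0.05 in A, B, C, D and H.

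The described member of that set lies in the densest stretch of calls. When named genes were taken in runs of 100 gene numbers along a chromosome, the run from number 2300 of D06 held 4 called loci of 56 tested, all higher in M, and all silent in the 4 inbreds. Of these, 3 loci carry the name Gh_D06G2309 and the other is Gh_D06G2310, so they stand for 2 named genes and reads may have been divided among them. The described locus of Gh_D06G2309, annotated as CW7, was at 2.14, 3.61 and 2.68 in M and at 0.233, 0.256 and 0.226 in L, a difference of 1.60 (SE 0.15). Its leaf means were 2.86 in M and 0.201 in L. By chromosome, D06 held 6 called loci of 1288 tested (0.466%), all higher in M, and A09 held 6 of 1426 (0.421%), all higher in L. For comparison, the A and D subgenomes each held 23 called loci, of 18642 (0.123%) and 19234 (0.120%) tested. Loci without a gene name were not placed on chromosomes, and the 0.251% over all genes counts them as well. The 4 loci of the run and Gh_D06G0237 entered the test only through the M libraries, so they had to be high in M to be tested. The counts and directions on D06 are therefore a description without a test.

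Another 8 genes higher in M were silent in A, C and D and present in B, the father of H. M stood at a median of 72.7% of B in these genes, and H at a median of 67.8%. Of these genes, 5 of the 5 tested in leaf were higher in M leaf, where 0.64% of all genes tested in leaf differed. Leaf and root came from the same plants, so this leaf count is a description. The choice of genes higher in M favours high values in M here too. None of the 8 genes has a gene name. In 3 further genes the other father D was present while A and C were silent. These include Gh_D02G2356, which encodes RAB GTPase 11C, a small GTPase of vesicle traffic. It was at 12.03, 6.64 and 10.97 in M and at 0, 0.0316 and 0.174 in L, with a mean of 3.91 in D and 0.0146 in C, a difference of 3.31 (SE 0.48). The libraries of D were split for this gene, at 0, 7.32 and 4.41, and it too entered the test only through the M libraries. Gh_D09G2032, a calcineurin-like phosphoesterase, was at 5.86, 5.25 and 6.30 in M and was listed at 0 in all L roots, as in A, C and H. Its call, with an adjusted p of 0.0315 by limma, was lost without any 1 of the 6 libraries, at up to 0.121.

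**Figure D3:**
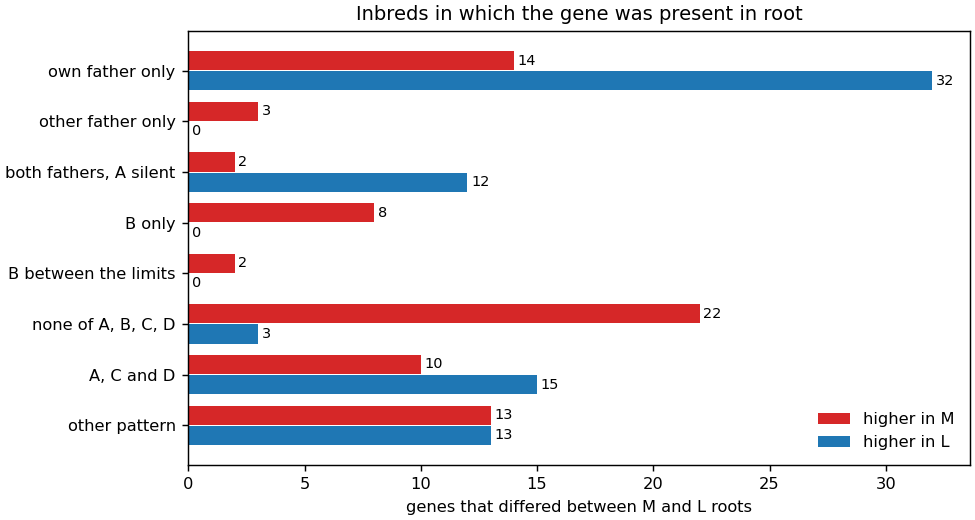
Number of genes that differed between M and L roots (horizontal) by the inbreds in which they were present in root, with a mean of at least 1 FPKM as present and under 0.5 as silent. Own father only means that A and the other father were silent, whatever the level in B, and holds 32 genes higher in L and 14 higher in M, while 22 genes higher in M and 3 higher in L were silent in all 4 inbreds.

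In the reverse pattern, a gene of both fathers was near absent from M. This held for 12 of the 75 genes higher in L, in which A was silent and both C and D were present. Their medians were 3.39 in C, 4.51 in D, 2.57 in L and 0.06 in M. The genes were chosen as higher in L with A silent and C present. This choice favours M near its mother and below its father, so the likeness is a description. H was silent in 5 of the 12 and present in 6. Gh_D12G2039, a P-loop nucleoside triphosphate hydrolase, is the named one. It was at 1.67, 1.05 and 1.23 in L and at 0, 0 and 0.0304 in M, with 2.01 in C, 3.29 in D and 0.0289 in A. The difference was -1.19 (SE 0.21, adjusted p = 0.00891, limma) and lost its call without L replicate 1, at an adjusted p of 0.0640, and when only the 6 libraries were fitted, at 0.136. The mirror pattern, with both fathers present and the gene higher in M, held for 2 genes.

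Genes present in A, C and D alike numbered 10 among those higher in M and 15 among those higher in L. Gh_A05G1096 encodes a 2-oxoglutarate and iron dependent oxygenase, a large class that hydroxylates small molecules. It was at 4.22, 5.93 and 4.62 in M and at 1.23, 1.92 and 0.898 in L, with 12.0 in C and 3.05 in D, and the difference was 1.35 (SE 0.18, adjusted p = 0.000801, limma). Outside this class, with A and C present and D silent, Gh_D01G0381 encodes a dirigent-like protein, of a family that guides the coupling of lignin and lignan precursors. It was at 12.99, 9.82 and 9.63 in M and at 4.03, 2.51 and 4.54 in L, with 9.17 in C, 9.68 in A and 0.199 in D, and the difference was 1.35 (SE 0.22, adjusted p = 0.00499, limma). L lay between its parents. When only the 6 libraries were fitted, the adjusted p by limma was 0.0768 for Gh_A05G1096 and 0.0852 for Gh_D01G0381, and with a pseudocount of 0.1 it was 0.241 for Gh_D01G0381. The assembled locus MSTRG.75373 was at 28.6, 17.8 and 39.3 in M and listed at 0 in all 3 L roots, although L leaf had a mean of 64.6 and every other genotype had a root mean of 12.0 or more. Its adjusted p was 0.0453 by limma, and the call was lost without any 1 of the 6 libraries, at up to 0.160.

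The other genes of the naming rule were less firmly set apart or lack a description. MSTRG.39450 was at 9.06, 9.14 and 10.2 in L and at 0.129, 0 and 0 in M, with 15.6 in D and 0 in A, B and C, and its difference was -3.33 (SE 0.09, adjusted p = 1.7e-12, limma). MSTRG.87180 was at 7.08, 6.28 and 6.59 in M and listed at 0 in all L roots, although both parents of L were above 1. Gh_A05G1347 was at 33.9, 25.8 and 27.6 in L and at 5.76, 0 and 2.06 in M, where the M libraries were spread widely. Gh_A02G1407, a RING zinc finger protein, was at 4.58, 4.88 and 5.07 in M and at 0.163, 0.191 and 1.26 in L. Gh_D05G3179 encodes WAG 1, a kinase that in Arabidopsis phosphorylates auxin efflux carriers, and was at 1.53, 1.42 and 2.18 in M and listed at 0 in all L roots, and it entered the test only through the M libraries. Gh_A09G0562;Gh_A09G0563, another 2-oxoglutarate dependent oxygenase, was at 3.74, 1.98 and 1.02 in L and at 0.747, 0.0760 and 0.338 in M. Each of the last 4 lost its call without several of the single libraries. The adjusted p rose to 0.149 for Gh_A05G1347, 0.184 for Gh_A02G1407, 0.134 for Gh_D05G3179 and 0.170 for Gh_A09G0562;Gh_A09G0563.

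Some called genes with related descriptions differed in opposite directions. They were set side by side by description after the calls were known, and whether their proteins act together was not tested. BRICK1 and the ABL interactor-like proteins are subunits of the SCAR/WAVE complex, which promotes actin branching. Gh_A11G1881, described as BRICK1, was at 1.78, 2.45 and 1.95 in M and at 0.154, 0.0836 and 0.259 in L. Gh_A09G1656, described as ABL interactor-like protein 3, was at 2.22, 1.32 and 1.82 in L and at 0.328, 0.0918 and 0.343 in M. Neither group overlapped the other, as in each of the 149 genes called. The calls, at an adjusted p of 0.0243 and 0.0184 by limma, depended on single libraries. The first was lost without any 1 library, at an adjusted p of up to 0.122 by limma. The second was lost without M replicate 1 or 2 or L replicate 1 or 3, at up to 0.114. Chosen after its values were seen, Gh_A11G2828 encodes NF-YA10, a subunit of the same type of trimeric factor as NF-YB3. It was at 6.62, 8.14 and 5.62 in M and at 3.37, 2.23 and 2.00 in L, with a difference of 1.15 (SE 0.15, adjusted p = 0.000547, limma), the opposite direction to NF-YB3. Further genes named with it after their values were seen are Gh_A04G0951, alpha-galactosidase 1, at 7.13, 9.64 and 8.17 in M and 3.08, 2.64 and 2.98 in L, and Gh_D11G1091, RAD-like 6, at 11.02, 9.52 and 11.2 in M and 4.57, 5.29 and 3.32 in L. RAD-like 6 belongs to the small MYB-related proteins.

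The fathers differed in many more genes than the hybrids. Between the roots of C and D, which share no library with M and L, 1761 genes (2.97% called) passed the same limits, 887 higher in C and 874 higher in D. Of the 149 genes between M and L, 61 differed in the same direction between the fathers, 3 in the opposite direction and 85 did not pass. These 61 genes are 40.9% of the M and L calls and 3.46% of the C and D calls, and they comprise 20 genes higher in M and 41 higher in L. Over the 1761 genes the difference of M and L in FPKM was a median of 0.0182 of the difference of C and D. Over the 248 genes with a father difference beyond 2 it was 0.0994. Additive inheritance gives 0.5 if C and D are the pollen parents as labelled. Parentage was not tested, and M did not follow its labelled parents fully, as described above. The genes were chosen for a large father difference, which favours a low ratio. The Pearson correlation of both differences across genes was 0.0219 over all tested genes and 0.255 over the 1761, as a description, since genes are not independent and share depth and length effects.

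**Figure D4:**
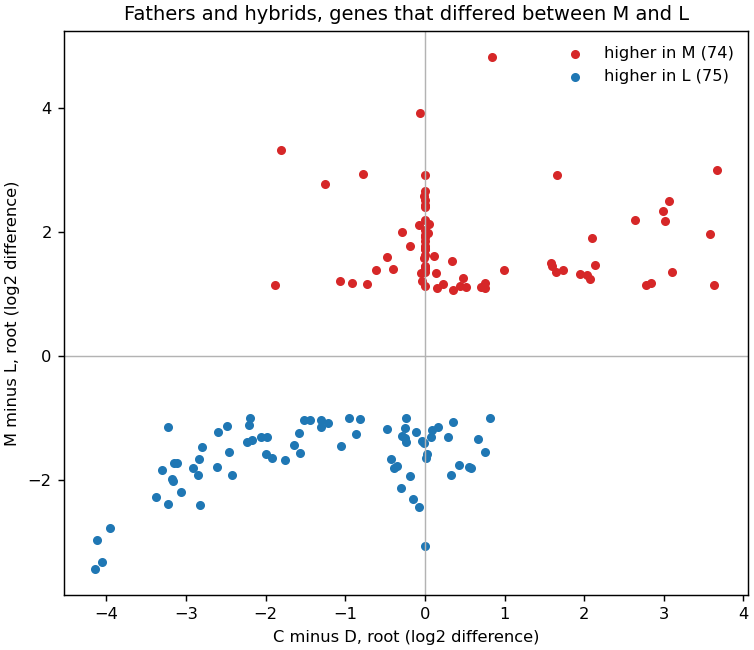
M minus L (vertical) against C minus D (horizontal), both in root as log2 differences, for the 149 genes that differed between M and L. Many genes higher in L (blue) lie at the lower left, where D exceeds C, while a column of genes higher in M (red) stands at a father difference near 0.

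The root differences were in part those of the leaf. Of the 149 genes, 101 were tested in leaf, 61 of them were called there in the same direction and 0 in the opposite direction by limma (0 also at an unadjusted p under 0.05 with the log2 limit), and 93 had the same sign. Across all genes tested in leaf, 351 (0.64% called) differed between M and L, so the 61 are 60.4% of the root genes tested in leaf and 17.4% of the leaf calls. Leaf and root came from the same plants, so these are not separate individuals. A gene near absent from the other genotypes in leaf could enter the leaf test only by being high in 1 hybrid, which favours the same direction. The difference itself was tested as root minus leaf of M minus L, and 244 of 69603 genes (0.351% called) passed, 182 positive and 62 negative. With root and leaf of the same number taken as 1 plant, 147 passed, and this count depended on single libraries, with 157 without L root replicate 2, 156 without M leaf replicate 1, 587 without M leaf replicate 2 and 607 without M leaf replicate 3, each against 244. Gh_D02G1972 has no description and was at 7.15, 7.79 and 7.42 in L root and listed at 0 in L leaf and in every other root library, a root difference of -3.08 (SE 0.12). It entered the root test only through the L libraries, so this is a description.

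Lists of genes for root function were drawn by words in the descriptions, and a member was called in 5 of them. These are dirigent-like proteins with 1 of 17 higher in M, xyloglucan enzymes with 1 of 38, arabinogalactan and extensin proteins with 1 of 144 and aquaporins with 1 of 71 higher in L, and 2-oxoglutarate oxygenases with 1 of 172 in each direction. Among all tested genes 0.251% were called, and nothing is read from 1 member about its list. The lists with 0 members called by limma included laccases, class III peroxidases, monolignol synthesis, expansins, nitrogen, phosphate, iron and zinc, auxin, ethylene, cytokinin, abscisic acid and WRKY factors. At an unadjusted p under 0.05 with the same limit, 1 of 56 expansins passed, 2 of 113 class III peroxidases, 1 of 226 auxin genes and 0 of the other lists named, against 1.14% of all tested genes. Laccases, which oxidize monolignols to lignin, had the lowest median among lists of more than 5 genes, at -0.18 with 11 of 61 members positive. Their summed FPKM was 599, 743 and 592 in M and 786, 699 and 694 in L, so the groups overlapped. Expansins, which loosen walls, had a median of -0.17 with 19 of 56 positive, cellulose synthases -0.13 with 26 of 76 and monolignol enzymes -0.12 with 10 of 39. Ribosomal proteins had a median of 0.07 with 550 of 750 positive, against 0.01 with 31313 of 59282 positive over all tested genes. The summed FPKM of these 750 genes was between 23056 and 30802 in M and between 23976 and 28023 in L, so the groups overlapped. Genes of a list are not independent, so the positive counts are a description.

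No LHY gene and no peroxidase gene among those the study named in hybrid roots was called between M and L. The 6 LHY genes encode a morning factor of the circadian clock, and 0 of 6 passed by limma at either p. Gh_A12G1061 was at 10.02, 10.6 and 10.9 in M and at 9.39, 10.7 and 11.2 in L, a difference of 0.01 (SE 0.11, adjusted p = 1, limma), while A, C and D were between 41.1 and 42.9. Over the 6 genes the differences ran from -0.18 to 0.01 with SE from 0.07 to 0.14. Of the 5 peroxidase genes named by the study, 0 passed by limma at either p with the log2 limit. The one with the largest difference was Gh_D02G1327, at 1.251, 1.5001 and 1.348 in M and at 4.48, 1.86 and 2.15 in L, with a difference of -0.63 (SE 0.23, adjusted p = 0.459 and unadjusted p = 0.0133, limma), and its M and L libraries did not overlap. All 5 peroxidase differences were negative, with a median of -0.25. The study chose both lists on these libraries, so neither is independent evidence.

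Lists of leaf-type transcripts had the largest medians. The summed FPKM of the 34 tested light-harvesting genes, which encode the chlorophyll antenna, was between 169.5 and 193.3 in M roots and between 92.9 and 127.3 in L roots. That of 64 photosystem genes was between 342.5 and 436.1 in M and between 191.0 and 283.4 in L, and that of the 8 rubisco small subunit genes, part of the enzyme that fixes carbon dioxide, between 145.3 and 163.1 in M and between 65.4 and 98.0 in L. The groups did not overlap in any of the lists, while the D roots, at 108.3 to 207.3 for the light-harvesting genes, ran through both ranges. Median differences were 0.51 with 29 of 34 positive, 0.52 with 55 of 64 and 0.89 with 6 of 8. None of these genes was called by limma, and 2, 4 and 1 were higher in M at an unadjusted p under 0.05 with the log2 limit, against 0, 1 and 0 higher in L and 1.14% of all tested genes in either direction. The light-harvesting and photosystem lists share 18 tested genes, among them Gh_A05G0725, which both counts include. None of the tested members was at 0 in all 6 libraries. Fewer cells of a type and less RNA per cell cannot be told apart in these bulk samples. Among the 74 genes higher in M, 1 had a leaf mean at least 10 times its root mean in M, and the part of leaf-type RNA in the other results was not tested.

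**Figure D5:**
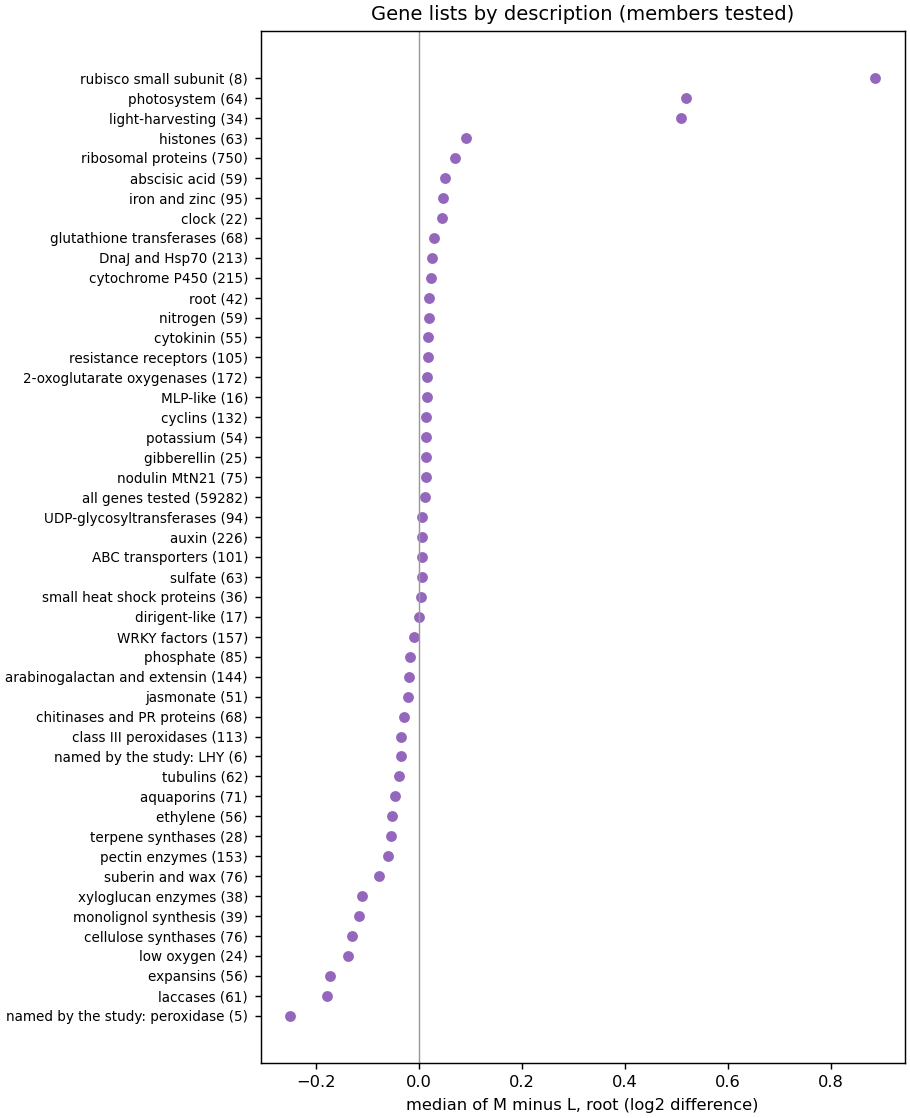
Median of M minus L in root (log2 difference, horizontal) for each list of genes drawn by description, with the number of members tested in parentheses. The light-harvesting, photosystem and rubisco lists stand at 0.51 to 0.89, and all others lie between -0.25 and 0.09.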

How the data were processed

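The authors sequenced root and leaf of 7 genotypes in 3 replicates as 42 paired-end libraries, mapped the reads with HISAT2 to the TM-1 genome and assembled and quantified genes with StringTie, with versions not stated in the paper or labels. The deposited table holds FPKM for 100881 genes and no counts, so count models were not used. Genes were kept when 3 or more of the 21 root libraries reached an FPKM of 1, and limma 3.58.1 in R 4.3.3 fitted 1 mean per genotype to log2(FPKM + 1) with a pseudocount of 1 and a mean-variance trend, tested 2-sided with Benjamini-Hochberg adjustment. Leaf was fitted likewise on its own 21 libraries, and the tissue difference on all 42. A call needed both an adjusted p below 0.05 and a difference larger than 1 on the log2 scale. The fit was tested on simulated data. The study calls the replicates biological. The p-values rest on the spread of replicates pooled over all groups of the fit and drawn toward the mean-variance trend. They do not rest on the spread of the M and L replicates alone.

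Named genes are the 10 largest described calls in each direction without overlap of libraries, the largest call of each list, the 11 LHY and peroxidase genes of the study, the 3 largest undescribed calls in each direction, genes specific to a father, the largest tissue differences and genes of the densest stretch. The members and lists were chosen with earlier results of these data known. Same-numbered M and L libraries deviated from their group means with correlations between -0.00496 and 0.0496, so the numbers were not taken as pairs. The cotton names in the table matched none of the gene identifiers in the reference table used here, so no coordinates or sequences are given.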

Additional observations from a re-analysis of the deposited data

Results flagged for a closer look

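The difference of M and L was not the same in root and leaf for 244 genes by limma, which is a test of the difference itself. Given as root minus leaf of M minus L on the log2 scale, Gh_D11G3404, a terpenoid cyclase, stood at 3.89, with 13.3 FPKM in L leaf and 0.118 in M leaf and root means of 0.0435 and 0.216. Gh_A13G1970, a Rossmann-fold protein, stood at -3.79, with 43.3 in M leaf against 2.33 in L leaf and root means of 0.206 and 0.248. Gh_A11G0653, a UDP-glycosyltransferase, stood at -2.70, with 5.98 in M leaf and 0.0195 in L leaf. In these 3 genes both root means were under 0.25.

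In Gh_Sca118000G01, P-glycoprotein 21, the value was -3.06, and the L roots were at 0.772, 8.37 and 6.17 against 0.407, 0.240 and 0.634 in M. Gh_D13G0590, an aspartyl protease, stood at 5.03, with 25.7, 28.5 and 25.3 in M root and 0 listed in all L roots. Its name is carried by more than 1 locus, and these values are of MSTRG.57525. Neither Gh_Sca118000G01 nor Gh_D13G0590 was among the 149 genes called between M and L roots. Gh_D10G1661, of the UPF0497 family, stood at 3.52, with 10.8 in L leaf against 0.348 in M leaf. The tests of Gh_D13G0590 and Gh_D10G1661 were lost in 14 and 15 of 19 alternatives.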

How the results depend on the processing

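With the replicate block, an unmoderated model, quantile normalization, no filter, a pseudocount of 0.1 or only the 6 libraries compared, the counts between M and L stayed within 1.5 times of 74 and 75. The block, at 73 and 73 genes, changed them little. The calls themselves were less stable, since 83 of the 149 were called when only the 6 libraries were fitted and 123 with a pseudocount of 0.1. With unadjusted p the counts were 323 and 352, and with no limit on the log2 difference 142 and 140. Between C and D, the pseudocount of 0.1 gave 1863 and 1590 genes and no limit gave 5138 and 6312. The tissue difference gave 1815 genes with unadjusted p, 376 with no limit and 147 with the plant as block. Leaving out 1 replicate gave 45 to 79 genes higher in M, 65 to 79 higher in L and 156 to 607 with a tissue difference, the last including leaf libraries left out as chosen after seeing the data. It was 157 without L root replicate 2, 156 without M leaf replicate 1, 587 without M leaf replicate 2 and 607 without M leaf replicate 3. No named call reversed. The cause was not tested. The depth is unknown, and low FPKM limits what can be called.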

Other observations

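Some large differences did not pass. Of the 1258 tested genes with a difference beyond 1 on the log2 scale, 149 were called. Gh_D02G0560, an MLP-like protein chosen after its values were seen, had a difference of 3.72 (SE 1.34, adjusted p = 0.452, limma). It was at 208, 236 and 180 in M root and at 3.92, 4.33 and 148 in L root, so 1 L library stood near the level of M.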
